A study of Mus musculus with 7 samples.

Results

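Argonaute was crosslinked to the coding sequence of mRNAs at 2924 positions in 1760 genes of the neonatal mouse retina, out of 14054 crosslink positions in all (20.8%, exact Clopper-Pearson 95% interval 20.1 to 21.5). A position was counted here when, on its own strand, it lay in the coding sequence (CDS) of a GENCODE M21 protein-coding transcript and in the 3′ UTR of none. All 2923 of these positions that had a transcript base fell on a T, the base that 4-thiouridine replaces. Of the others, 7336 positions lay in 3′ UTRs and serve below as the comparison.

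The positions come from PAR-CLIP, in which cells build 4-thiouridine into new RNA, ultraviolet light joins that base to a protein touching it, and an antibody then recovers the protein together with the bound RNA. Explants of neural retina from newborn CD-1 mice (postnatal day 0) were cultured for 24 h with 0.1 mM 4-thiouridine and 20% horse serum, then irradiated at 365 nm (about 300 mJ/cm2). There were 5 Argonaute (antibody 2A8) and 2 IgG libraries, each from 6 pooled retinas, with no difference in genotype or treatment beside the antibody. The deposited table pools the Argonaute libraries and gives each position a score, the number of those 5 libraries that hold it, which ran from 2 to 5. Single libraries and the IgG controls were not analysed here, so there is no spread between replicates, read depth is unknown, and intervals and p-values cover the counting of positions only. Whether abundant mRNAs, which give more reads, hold more positions was not tested.

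Argonaute proteins carry microRNAs, short RNAs that pair through their seed with complementary sites in mRNAs and lower the output of those mRNAs. Most sites that act on mRNA level are found in 3′ UTRs. Sites in coding sequence are also bound but are usually described as weaker, since ribosomes move through them, and coding repeats can hold many copies of a site. A crosslink usually lies just before the seed match, at a base that faces Argonaute and is left unpaired by the seed.

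The sequences below carry the findings. They begin with the mature forms, from RefSeq (GRCm38.p6 tables), of the microRNAs whose seed matches recurred at coding sequence crosslinks, with the seed (bases 2 to 8) in capitals.
miR-9-5p: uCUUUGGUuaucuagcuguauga
let-7a-5p: uGAGGUAGuagguuguauaguu
miR-181a-5p: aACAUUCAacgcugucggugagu
miR-17-5p: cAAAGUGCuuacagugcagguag
miR-182-5p: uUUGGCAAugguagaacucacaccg

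Next come coding sequence crosslinks found in all 5 libraries, chosen to show the match that follows the crosslinked T. Each run is 29 nt of spliced transcript, written 5′ to 3′, with 8 nt before the crosslinked T and 20 nt after it. Capitals mark a 7mer match to the seed or, in the last 4 sequences, the 6mer match to miR-9 without its full 7mer. Matches of other families are not marked. Larp4b and Usp22 also hold a miR-182 7mer over the crosslinked T, and Oxct1 a miR-1/miR-206 7mer. Coordinates are mm10.
Anp32a, miR-9 (chr9:62371836-62371864, plus strand): ttccaacttACCAAAGttaaacaaactca
Aff4, miR-9 (chr11:53372358-53372386, plus strand): cagatcgatACCAAAGcttgttgcaattc
Eif4enif1, miR-9 (chr11:3242490-3242518, plus strand): agccgttatACCAAAGaacaagattatcg
Gars, let-7 (chr6:55065483-55065511, plus strand): tggccgcatCTACCTCtacctcacgaagg
Phip, let-7 (chr9:82876199-82876227, minus strand): cagaagtatCTACCTCtccattctccata
Pank3, miR-17/20/93 (chr11:35776294-35776322, plus strand): aggaaacttGCACTTTatcagatttccaa
Usp9x, miR-25/92 (chrX:13156076-13156104, plus strand): aaagagaatGTGCAATcaagttcaatgat
Rorb, miR-30 (chr19:18977624-18977652, minus strand): tacccaactTGTTTACctatagctctttc
Kmt2e, miR-9 6mer (chr5:23478880-23478908, plus strand): ctgaaatctgCCAAAGacttgcctcctga
Larp4b, miR-9 6mer (chr13:9151047-9151075, plus strand): cacatttttgCCAAAGaatggatttagac
Usp22, miR-9 6mer (chr11:61166688-61166716, minus strand): gaaatcattgCCAAAGaggagcagcgcaa
Oxct1, miR-9 6mer (chr15:4091209-4091237, plus strand): tatccacattCCAAAGatttatgtgcacc

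Lastly, crosslinks at repeated miR-181 matches in 4 genes are shown with the 7mer in capitals, since the same letters recur from one repeat to the next.
2610008E11Rik, 5 libraries (chr10:79067388-79067416, minus strand): aaagcctttTGAATGTaatgaatgctcta
2610008E11Rik, 4 libraries (chr10:79066966-79066994, minus strand): agaaaccgtaTGAATGTaaagactgcaac
2610008E11Rik, 3 libraries (chr10:79066630-79066658, minus strand): aaaaaccttaTGAATGTaaagaatgtagg
Zfp37, 4 libraries (chr4:62191240-62191268, minus strand): aaaccctaTGAATGTattgaatgtggtaa
Zfp37, 3 libraries (chr4:62191661-62191689, minus strand): gaaaccattTGAATGTaatgaatgtggga
2010315B03Rik, 4 libraries (chr9:124293045-124293073, minus strand): agaaaccctaTGAATGTaaccaatttggt
Zfp788, 5 libraries (chr7:41649905-41649933, plus strand): gaaaaccataTGAATGTacacagtgtggt

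Coding sequence crosslinks recurred in fewer libraries than 3′ UTR crosslinks. Of the 2924 positions, 2290 were found in 2 libraries, 427 in 3, 143 in 4 and 64 in all 5. Those in 3 or more libraries made up 21.7% (20.2 to 23.2), beside 32.9% (31.8 to 34) of 3′ UTR positions and 25.6% of all positions. The odds ratio was 0.565 (95% interval 0.510 to 0.626; Fisher's exact test over positions, two-sided, p = 4.07e-30). With 1 position per gene, the one with the lowest coordinate whatever its score, the shares were 20.7% of 1760 and 30% of 3246 (odds ratio 0.608, 0.528 to 0.699; Fisher's exact test, p = 5.88e-13). Intronic positions recurred less than those of coding sequence, with 8.97% in 3 or more libraries, while the 5′ UTR share was 21.5%.

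**Figure D1:**
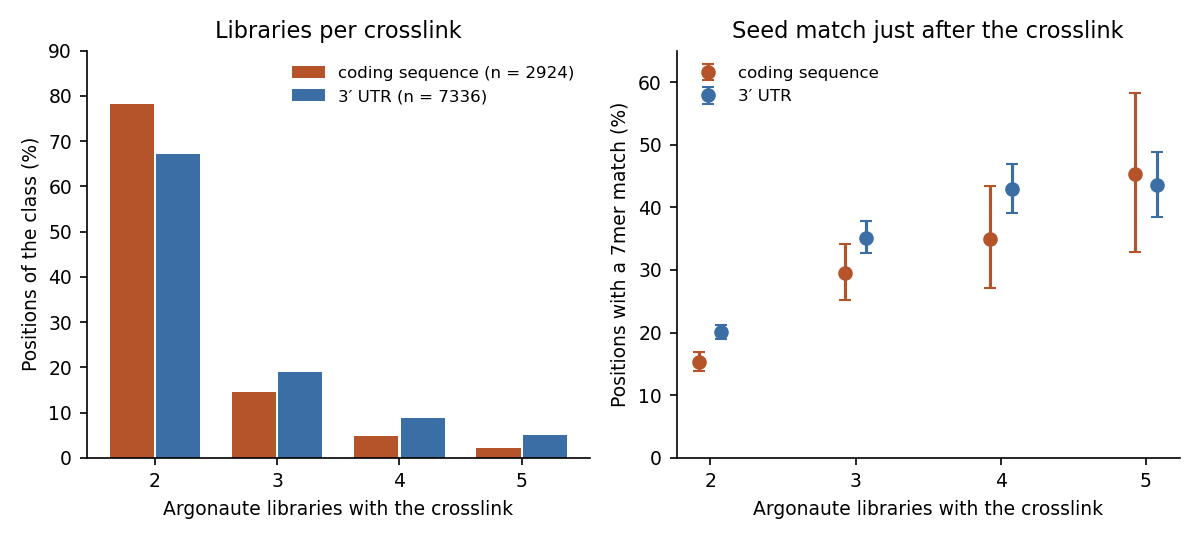
Left, share of coding sequence and 3′ UTR positions (%, bars) found in 2, 3, 4 or 5 Argonaute libraries; right, share of positions (%) with a 7mer seed match of any of 35 families starting 0 to 3 nt after the crosslink, with exact 95% intervals. Coding sequence has more positions in 2 libraries, and in both classes the share with a match is higher where more libraries hold the position, from 15.3% to 45.3% in coding sequence.

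The positions were spread along the whole coding sequence except for its start. Their median place was 52.4% of the way from the start codon (quartiles 28.8% and 76.3%, n = 2924). The first 10% of the coding sequence held 6.27% of positions (5.42 to 7.21), beside 9.35% of the T bases of the same coding sequences. The stretch within 100 nt of the start codon held 2.84% (2.27 to 3.51) beside 5.22% of T bases. Each of the other bins of this size held between 9.18% and 11%. The last 10% held 11% (9.85 to 12.2) beside 9.57% of T bases, and the last 100 nt held 6.37% (5.51 to 7.32) beside 5.55%. Relative to the T bases that can crosslink, positions were thus fewer near the start codon, while near the stop codon the difference was small. With 1 position per gene, the last 20% held 23.4% of positions in place of 21.5%.

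By exon, the positions followed the T bases closely outside the exon with the start codon. The median exon number was 7, the median number of exons in the transcript 14, and the median length of the exon hit 180 nt. The exon with the start codon held 8.32% of positions (7.35 to 9.39) beside 11.2% of T bases. That with the stop codon held 18% (16.6 to 19.4) beside 17.2%. Bases within 20 nt of an exon junction held 21.7% (20.2 to 23.2) beside 22.8%, and exons longer than 1000 nt held 24.9% beside 23.3%.

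Within codons, the third base was crosslinked most. It held 44.1% of positions (42.3 to 45.9) beside 38.5% of T bases, the second base 33.1% beside 36.9%, and the first base 22.8% beside 24.6%. The codons hit most were GAT at the third base with 230 positions, AAT at the third base with 200, ATT at the second base with 171, ATG at the second base with 156 and TAT at the third base with 146. TAT at that base held 5% of positions and 1.98% of T bases. Cutting by the nuclease and crosslinking can depend on nearby bases, and their part in these shares was not tested.

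**Figure D2:**
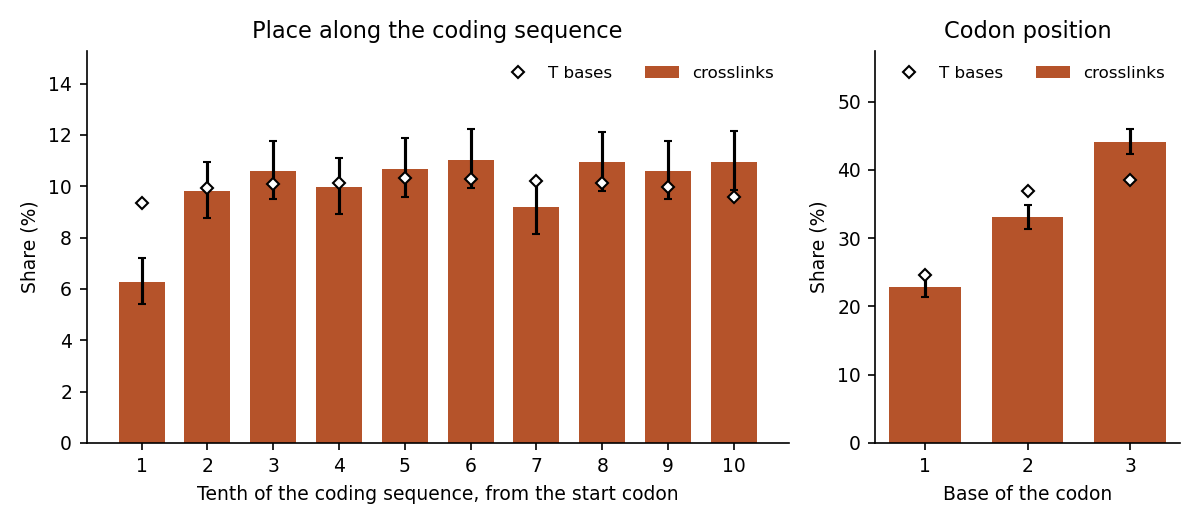
Share (%) of coding sequence crosslinks in each 10% bin of the coding sequence (left) and at each base of the codon (right), as bars with exact 95% intervals; diamonds give the share of T bases of the same coding sequences. The first bar (6.27%) lies below its diamond (9.35%), and that of the third codon base (44.1%) lies above its diamond (38.5%).

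Most genes had few coding sequence positions: 1183 had 1, 319 had 2, 117 had 3, 76 had 4 and 65 had 5 or more. Map1b, a protein that stabilises microtubules in growing neurites, had the most with 13, of which 10 were in 2 libraries and 3 in 3 libraries. Of these, 12 lay in its long exon 5 of 7, and 20 further positions lay in its 3′ UTR. Kmt2e, a chromatin protein of the trithorax group, had 12 positions and 1 in its 3′ UTR, and 2 of the 12 were in all 5 libraries, at 18.5% (exon 10 of 26) and 83.0% (exon 26) of its coding sequence. In the genes plotted by place along the coding sequence, positions in 2 libraries outnumbered the others in every gene except 2610008E11Rik, where they were equal in number.

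Regulators of ubiquitin and of chromatin stood among the genes with most positions. Nedd4, a ubiquitin ligase, had 11, all between 23.6% and 99.4% of its coding sequence. Usp9x, a deubiquitinase, had 11, and 7 of them lay between 67.7% and 74.8% of its coding sequence, around a position in 5 libraries at 70.8%, in exon 35 of 45. That position was followed by the miR-25/92 match shown above. Adnp, a homeodomain protein that joins chromatin remodellers, had 11, and 10 of these were in exon 5 of 5 and all 11 in the first 57.4% of the coding sequence.

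Among genes of the microRNA pathway, Tnrc6a, Dicer1 and Cnot6 had the most coding sequence positions, while Ago2, Pan2 and Xpo5 had 1 each. Tnrc6a, the GW182 protein that links Argonaute to deadenylation, had 10 positions, and 1 of them, in 4 libraries, preceded a miR-181 match. Dicer1, the enzyme that cuts microRNA precursors, had 10, 7 in 2 libraries and 3 in 3 libraries. Of the 10, 7 lay in exon 21 of 27, between 59.1% and 65% of the coding sequence, and the 3 in 3 libraries were among them. The 3′ UTRs of Tnrc6a and Dicer1 held 15 and 10 further positions. Cnot6, a deadenylase, had 6, and the last of them, in 5 libraries at 95.8% of the coding sequence, preceded a miR-19 match.

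The other genes with 9 positions were Apc, a scaffold of Wnt signalling, Ddx5, an RNA helicase, Dync1h1, the heavy chain of cytoplasmic dynein, Macf1, a cytoskeletal linker, Mki67, which coats mitotic chromosomes, and Ncl, a nucleolar protein. All 9 positions of Mki67 and of Ncl were in 2 libraries. Apc had 1 position in 5 libraries and 1 in 4. In Macf1, 2 positions were in 4 libraries, in exons 9 and 59 of 98. In Ddx5, 3 of the 9 windows of 41 nt also occurred at another place in annotated transcripts, so the gene that gave those reads cannot be told apart there. Over all coding sequence positions, this held for 44 windows (1.51%) in 40 genes, and for 0 of those in 5 libraries.

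**Figure D3:**
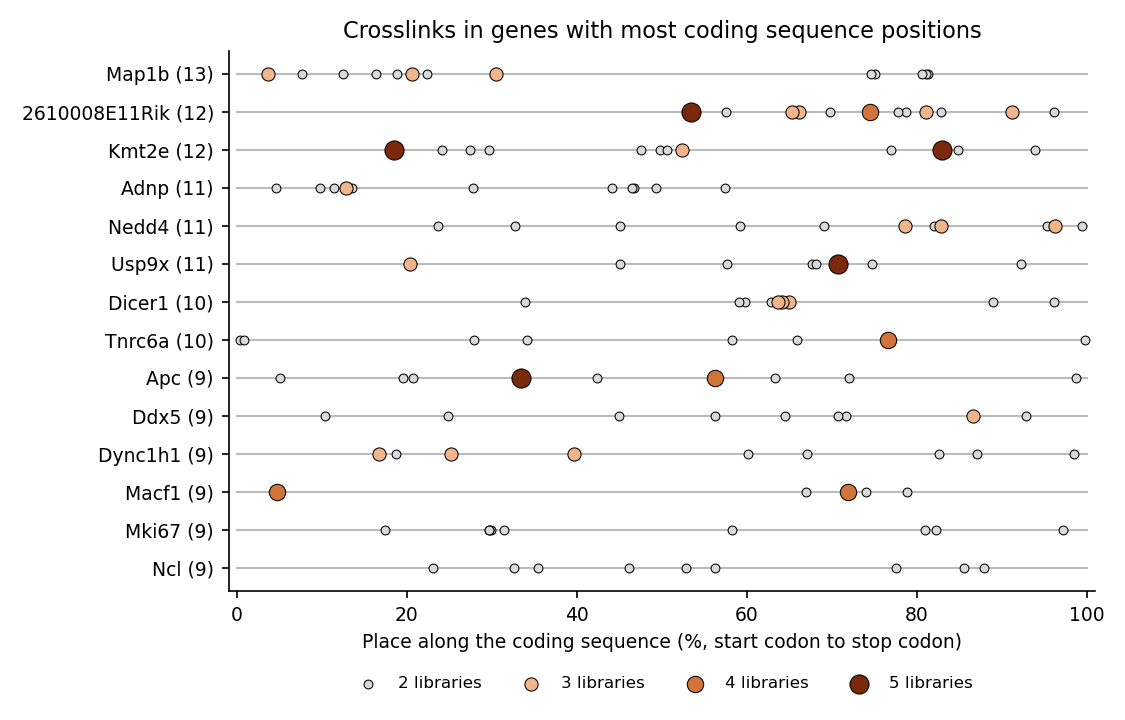
Place of each crosslink along the coding sequence (%, from start to stop codon) in genes from the top of the ranking by number of positions, with the number of positions in brackets and the point size and colour giving the number of libraries. Dicer1 and Usp9x hold tight groups of points near 64% and 71%, while those of Ncl and Ddx5 are spread out.

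Relative to length, and among genes with 3 or more positions, short coding sequences led, which dividing at least 3 positions by length favours. Skp1a, a subunit of SCF ubiquitin ligases, had 4 positions in 489 nt (8.18 per kb), of which 1 was in 5 libraries and 1 in 4, and 1 of the others had a window found elsewhere too. Anp32a, an acidic nuclear protein, had 6 in 741 nt (8.10 per kb), and its relative Anp32b had 5 in 816 nt (6.13 per kb). Mdk, a secreted growth factor, had 3 in 420 nt (7.14 per kb). Ywhae, a 14-3-3 protein, had 5 in 765 nt, the GTPase Arl15 had 4 in 612 nt, and each came to 6.54 per kb. Pank3, a pantothenate kinase, had 7 in 1110 nt (6.31 per kb), and 1 of them, in 5 libraries, preceded a miR-17/20/93 match.

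About as many genes were crosslinked in coding sequence without any 3′ UTR position as with one. No 3′ UTR position was found for 881 of the 1760 genes (50.1%, 47.7 to 52.4), which held 1297 coding sequence positions. Of these 881 genes, 652 had 1 position and 85 had 3 or more. A further 2368 genes had 3′ UTR positions and none in coding sequence, and in all 42% of 4186 genes with an mRNA crosslink had a coding sequence position. The 881 genes had shorter 3′ UTRs: the longest annotated one was a median 1003 nt (quartiles 475 and 1982), beside 2350 nt (1381 and 3664.5) for the 879 genes with both kinds of position. Their coding sequences were a median 1956 nt and 2208 nt long. A shorter 3′ UTR offers fewer bases to crosslink, and the part of this in the counts was not tested.

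The genes with most coding sequence positions and none in the 3′ UTR included Usp9x with 11, and Dync1h1, Mki67 and Ncl with 9 each. Their annotated 3′ UTRs ranged from 254 nt (Dync1h1) to 5901 nt (Ncl). Zfp37, a zinc finger protein, and Ankrd17, an ankyrin repeat protein, had 8 each. Ckap5, which helps microtubules grow, and Dync1i2, a dynein intermediate chain, had 7 each. Arhgap5, an activator of small GTPases, Lrrn3, a neuronal leucine-rich repeat protein, Rnf139, a ubiquitin ligase of the endoplasmic reticulum, Tcp1, a chaperonin subunit, and Tut4, a uridylyltransferase that acts on microRNA precursors, had 6 each. Lrrn3 had 4 of its 6 positions between 45.4% and 49% of its coding sequence, 1 of them in 5 libraries. Anp32b had 5 positions and no 3′ UTR position, while Anp32a had 6 and 2 in its 3′ UTR.

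A position in 3 or more libraries was found in 26.0% (23.1 to 29.0) of the genes without a 3′ UTR position and in 33.2% (30.1 to 36.4) of those with one (odds ratio 0.706, 0.572 to 0.872; Fisher's exact test, p = 0.000996). Among genes that each had 1 coding sequence position, the shares were 18.3% of 652 and 21.3% of 531 (odds ratio 0.826, 0.613 to 1.11; Fisher's exact test, p = 0.211), which did not pass the test. Positions in all 5 libraries were found in 25 genes without a 3′ UTR position, such as Usp9x, Lrrn3, Asxl1, Eif5 and Eif4enif1, and in 37 genes with one.

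Seed matches of 35 microRNA families were sought in 41 nt around each crosslink. A 7mer match (7mer-m8, the complement of bases 2 to 8) of any family was present in 32.9% of 2922 coding sequence windows (31.2 to 34.7) and 38.0% of 7297 3′ UTR windows (36.9 to 39.1). In coding sequence, a match starting 0 to 3 nt after the crosslink was present at 15.3% (13.9 to 16.9) of positions in 2 libraries, 29.5% of those in 3, 35.0% of those in 4 and 45.3% (32.8 to 58.3) of those in 5. In 3′ UTRs, the share in 5 libraries was 43.5% (38.4 to 48.8). The families miR-124, miR-133 and miR-122 were not among those searched.

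Matches were more frequent at coding sequence crosslinks than 100 nt away in the same coding sequence for 15 of the 35 families (42.9%) and less frequent for 0 (0%) (two-sided Fisher's exact test with Benjamini-Hochberg adjustment over the families). At an unadjusted p under 0.05 the counts were 17 and 0. let-7 was present in 2.98% of windows at crosslinks and 0.290% of windows away (odds ratio 10.5, 6.12 to 19.3, q = 4.25e-24). miR-17/20/93 was present in 2.64% and 0.2% (odds ratio 13.5, 7.14 to 28.3), and miR-9, a microRNA of neural progenitors, in 3.56% and 0.563% (6.52, 4.32 to 10.1). miR-181 was present in 3.77% and 0.944% (4.11, 2.92 to 5.85), and miR-182, one of the sensory-organ cluster, in 3.25% and 0.435% (7.68, 4.86 to 12.6). miR-19, miR-130/miR-301, miR-25/92 and miR-26 had odds ratios of 5.69 to 6.06. The other called families were miR-15/16, miR-103/miR-107, miR-96, miR-30, miR-1/miR-206 and miR-125, with odds ratios of 2.52 to 4.04. Of these, miR-1/miR-206 is known for muscle and stood in the search as a family of other tissues. miR-125 did not pass the test under any other setting tried. The 7mers of miR-15/16 and miR-103/miR-107 overlap in sequence, as do those of miR-19 and miR-130/miR-301, so the counts of these families are not separate.

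**Figure D4:**
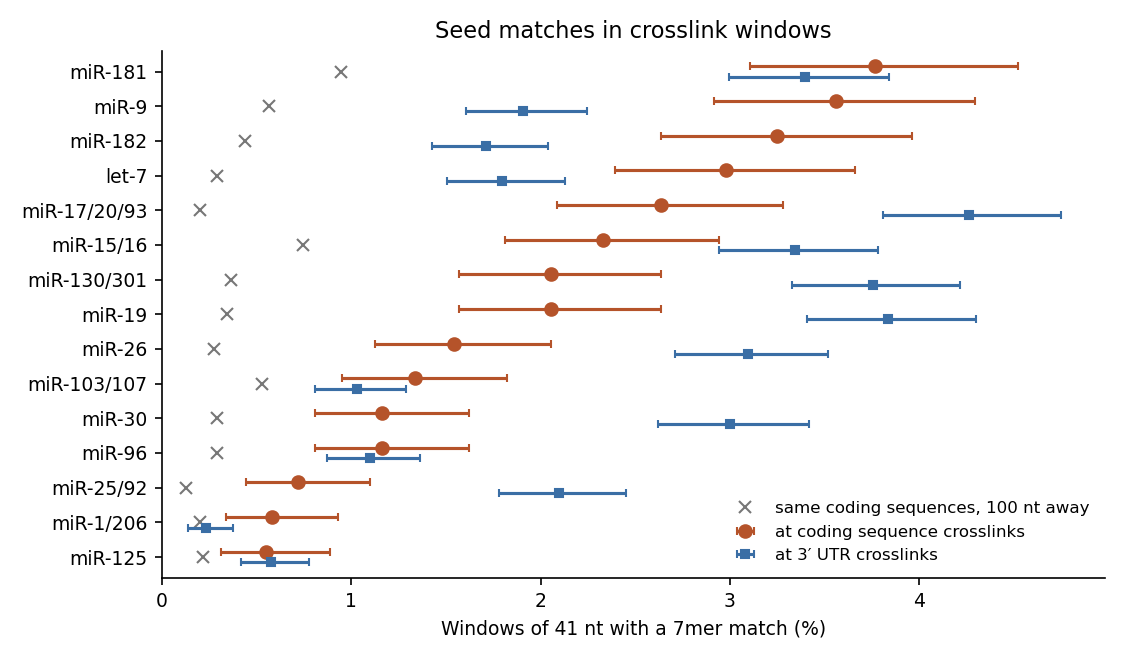
Share (%) of 41 nt windows with a 7mer match for the 15 families called at coding sequence crosslinks, with exact 95% intervals at coding sequence and 3′ UTR crosslinks; crosses give windows 100 nt away in the same coding sequences. Every circle lies right of its cross, and miR-9, miR-182 and let-7 have higher shares in coding sequence than in 3′ UTRs, while miR-17/20/93, miR-19, miR-26, miR-30 and miR-25/92 have lower ones.

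Coding sequence and 3′ UTR crosslinks differed in which families they held. Between them, 5 of 35 families (14.3%) were more frequent in coding sequence windows and 9 (25.7%) less frequent. miR-9 was present in 3.56% of coding sequence and 1.90% of 3′ UTR windows (odds ratio 1.90, 1.45 to 2.48; Fisher's exact test, q = 1.55e-05), miR-182 in 3.25% and 1.71% (1.93, 1.46 to 2.55) and let-7 in 2.98% and 1.8% (1.68, 1.26 to 2.23). Of the 95 coding sequence windows with miR-182, 33 also held the miR-9 6mer 2 nt after the crosslink, and no test left these out. miR-1/miR-206 (0.582% and 0.233%) and miR-216b (0.684% and 0.329%) were rarer and also higher in coding sequence. Lower in coding sequence were miR-17/20/93, miR-25/92, miR-19, miR-130/miR-301, miR-15/16, miR-26, miR-30, miR-101 and miR-148/miR-152, such as miR-30 with 1.16% and 3% (odds ratio 0.381, 0.256 to 0.550) and miR-101 with 0.308% and 1.67%. Windows of coding sequence were richer in G and C, with a median GC content of 43.9% beside 36.6%, and the part of this in the differences was not tested. With 1 position per gene, miR-9 (q = 0.000338) and miR-182 (q = 0.00251) passed the test, and let-7 (3.18% and 2.27%, q = 0.154), miR-1/miR-206 (q = 0.476) and miR-216b (q = 0.0946) did not.

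Matches clear of the crosslinked base lay mostly after it in both classes. Of 1135 coding sequence matches, 661 started after the crosslinked base (58.2%, 55.3 to 61.1), 178 ended before it and 296 lay over it. Among those clear of it, the share after was 78.8% (75.9 to 81.5), and in 3′ UTRs it was 79.3% (77.7 to 80.8), and the classes could not be told apart by the test (odds ratio 0.970, 0.8 to 1.18; Fisher's exact test, p = 0.770). The most frequent start was 1 nt after the crosslinked T, with 386 coding sequence matches. A two-sided exact binomial test was passed for the side after the crosslink by 14 of 35 families (40%) and for the side before it by 0 (0%), with 16 and 0 at an unadjusted p under 0.05. Leaving out matches 1 nt after the crosslink, the share after it was 60.7%. Families differed in this: of 95 miR-182 matches, 69 lay over the crosslinked base and 20 after it, and miR-1/miR-206 had 10 over it, 5 before and 2 after.

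**Figure D5:**
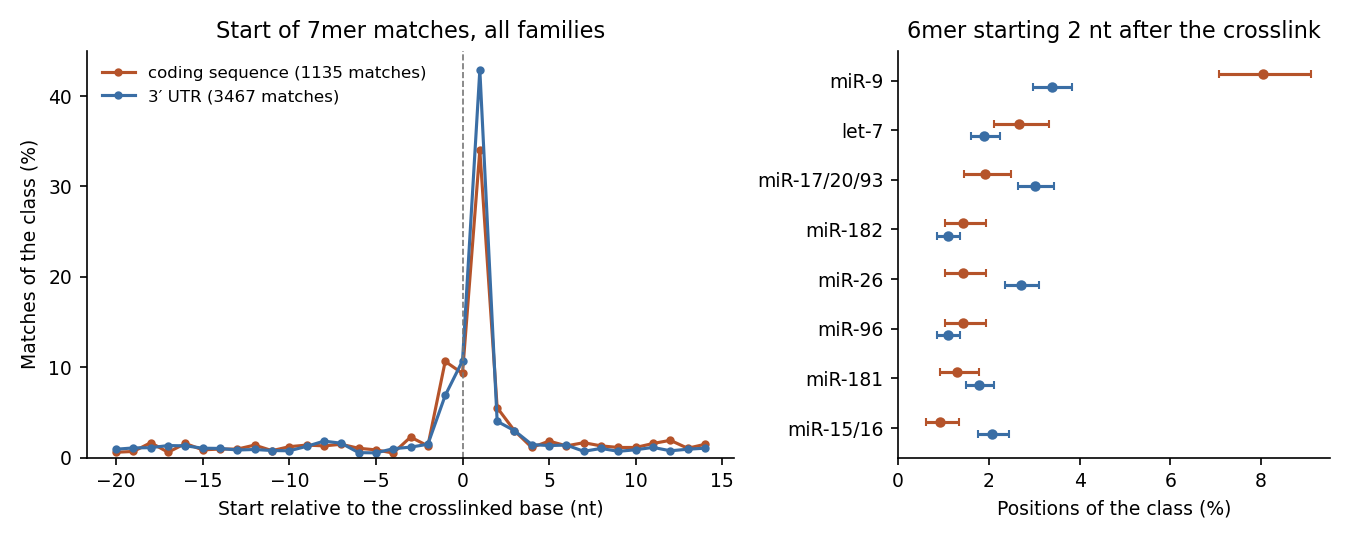
Left, start of 7mer matches of all families relative to the crosslinked base (nt, downstream positive) as a share (%) of the 1135 coding sequence and 3467 3′ UTR matches. Right, share (%) of positions of each class whose 6mer (complement of bases 2 to 7) starts 2 nt after the crosslink, for the 8 families with most in coding sequence, with exact 95% intervals (orange, coding sequence; blue, 3′ UTR). Both classes peak at 1 nt, and the miR-9 6mer stands at 8.04% of coding sequence positions.

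The 6mer of miR-9, CCAAAG, was the most frequent at that place. It started 2 nt after the crosslinked T at 235 coding sequence positions in 227 genes (8.04%, 7.08 to 9.09), beside 247 3′ UTR positions (3.38%, 2.98 to 3.83). The T bases with the same spacing to CCAAAG made up 0.0818% of all T bases in the principal coding sequences of the crosslinked genes (868 of 1061546), so its share at crosslinks was 98.4 times as high. The same ratio was 82.4 for let-7, 69.2 for miR-17/20/93 and 60.1 for miR-26. This 6mer and the ranking of short words below were looked at after the data were seen, and these counts have no test. As an added alternative to the 7mer, its 41 nt windows were also more frequent in coding sequence (11.3% and 4.99%; odds ratio 2.42, 2.06 to 2.83; Fisher's exact test, q = 5.14e-26).

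The base between the crosslinked T and CCAAAG pairs with base 8 of miR-9 when it is A, and in most of these positions it was not. It was G at 85, A at 70, T at 63 and C at 17 of the 235, so 29.8% (24.0 to 36.1) held the full 7mer. For miR-17/20/93 the full 7mer was present at 48 of 56 such 6mers and for let-7 at 56 of 78. In the 3′ UTR 36% of the miR-9 6mers held the full 7mer. Among all 868 places in the coding sequences, A stood at 19.2% and G at 33.4%. Positions without the base 8 match were in 3 or more libraries in 49.7% (41.8 to 57.6) of 165 cases. Those with it were so in 52.9% (40.6 to 64.9) of 70, and both shares lay above the 21.7% of all coding sequence positions. The 165 pool G with T and C. The share was 56.5% (45.3 to 67.2) with G, 41.3% (29.0 to 54.4) with T and 47.1% with C (8 of 17). Differences between the bases were not tested. Positions with G also spell TGCCAA, the 6mer of miR-96 and miR-182. Of the 95 coding sequence windows with a miR-182 7mer, 33 were also among the 235, so the counts of these families are not separate.

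The miR-9 6mer positions were at the third base of the codon in 142 cases, the second in 75 and the first in 18. The third-base share, 60.4% (53.9 to 66.7), was that of the 868 places in the same coding sequences, 59.2%. Without these 235 positions the third base still held 42.7% (40.8 to 44.6) of crosslinks. Ankrd17 had 3 of them, all in exon 29 of 34, and Aff1, Ankrd28, Jph1, Klf11, Ube3a and Zfp462 had 2 each. Ube3a is an imprinted ubiquitin ligase of neurons, and its positions were in 3 and 4 libraries.

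Other words of 7 bases starting 1 nt after the crosslink ranked in coding sequence as follows. GCCAAAG (85 positions), ACCAAAG (70) and TCCAAAG (63), the miR-9 6mer after G, A and T, were at ranks 1, 2 and 4. GTGCCTT, the match of none of the 35 families searched, which leave out miR-124, miR-133 and miR-122, was at rank 3 with 69 positions (2.36%), beside 251 in 3′ UTRs (3.44%), and 33 of the 69 were in 3 or more libraries. CTACCTC, the let-7 7mer, had 56, GCACTTT, that of miR-17/20/93, had 48, and TGAATGT, that of miR-181, had 34. ATGAATG had 27 coding sequence positions and 3 in 3′ UTRs, and it is A followed by the first bases of the miR-181 7mer.

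Coding sequence crosslinks in zinc finger genes often lay beside miR-181 matches. C2H2 zinc fingers are tandem repeats that bind DNA, and their coding repeats are known to hold many miR-181 matches. Of 126 coding sequence windows in genes of the zinc finger list, 38 held a miR-181 7mer (30.2%, 22.3 to 39.0), beside 72 of 2796 windows in other genes (2.58%, 2.02 to 3.23). Of those 72, 10 were in 2610008E11Rik and 2010315B03Rik, which the list, made from symbols, does not hold. Shares away from the crosslinks were not taken for zinc finger genes alone. The part of their many miR-181 matches in this difference was thus not tested. In the zinc finger genes and these genes, 53 of 54 matches began at the third base of a codon, so that the first T closed a codon and GAA and TGT were whole codons. In other genes this held for 35 of 63. Matches started 2 nt after the crosslink in 24 of the 54 and in 4 of the 63.

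2610008E11Rik held 12 positions in its last exon, between 53.4% and 96.2% of the coding sequence, and 7 of them had a miR-181 match within 20 nt. Of the 12, 6 were in 2 libraries, 4 in 3, 1 in 4 and 1 in 5. Zfp37 held 8, of which 5 had such a match, and none in its 3′ UTR. All 3 positions of 2010315B03Rik had one, each 2 nt after the crosslink, in 4, 2 and 2 libraries. Their coding sequences hold 10, 12 and 9 miR-181 7mers. Zfp994, with 16, had 1 crosslink, and Zfp930, with 14, had 2, each beside a match. Windows identical to another place in annotated transcripts were found in 7 Zfp genes, such as Zfp60 and Zfp930, and in none of these positions of 2610008E11Rik, Zfp37 or 2010315B03Rik.

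Dicer1 and Vapa also had 3 crosslinks each within 20 nt of a match of 1 family. In Dicer1 these were 3 separate let-7 matches; let-7 is a microRNA that Dicer1 itself produces and whose sites in its coding sequence have been described before. The match of the position at 104702704 on chromosome 12 (3 libraries, exon 21 of 27) started 1 nt after the crosslink and read ctaacacatCTACCTCagatggaagcccc. A further match, 6 nt after the position at 104694709 in exon 24, was in 2 libraries, and in the last case the match started 15 nt before the position at 104702796. A position in exon 21 at 104702753, in 3 libraries, was the first base of a miR-181 match. In Vapa, a protein of endoplasmic reticulum contacts, the 3 positions, in exons 2 and 3 of 6, lay around 1 and the same miR-103/miR-107 match, which started 14 nt after the first, 1 nt before the second and 20 nt before the last of them.

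Of the 64 positions in all 5 libraries, 29 (45.3%) had a 7mer of the 35 families starting 0 to 3 nt after the crosslink, 23 (35.9%, 24.3 to 48.9) had the miR-9 6mer, and 42 (65.6%, 52.7 to 77.1) had either. GTGCCTT followed the crosslink at 3 of the 64 (4.69%), in Asxl1, Gnb3 and Lipo3. A miR-9 7mer started 1 nt after the crosslink in genes such as Aff4, Anp32a, Eif4enif1, Nf1, Rnf167, Setd5, Snrnp48, Utp15 and Wnk1. Eif4enif1 encodes a protein that binds the cap factor eIF4E and moves it between nucleus and cytoplasm, and its position in exon 17 of 19 was the only crosslink of the gene in coding sequence, UTRs or introns. Aff4, a scaffold of transcription elongation, had 1 coding sequence position, in 5 libraries, and 6 in its 3′ UTR.

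Other families were present as well. Klhl9, an adaptor of cullin ligases, had 6 coding sequence positions in its 1 exon, and 2 of them were in 5 libraries, 1 of which preceded a miR-15/16 match. Arl8b, a lysosomal GTPase, had 1 position, before a miR-15/16 match. Gars, glycyl-tRNA synthetase, had 4 positions, in 2, 3, 4 and 5 libraries, and that in 5 preceded the let-7 match shown above. Phip, a chromatin reader, also had a let-7 match, and Ash1l, a histone methyltransferase, a miR-25/92 match. 9930021J03Rik had a miR-19 match that started at the crosslinked base, and Fem1c, a receptor of cullin ligases, a miR-26 match. Dbn1, an actin-binding protein of neurites, had a miR-182 match that started at the crosslinked base.

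Gene lists, chosen with earlier results known, are described beside all genes, where 42% of genes with an mRNA crosslink had a coding sequence position and coding sequence held 28.5% of coding sequence and 3′ UTR positions together. The lists differed in median coding sequence length, with 1656 nt for all genes. It was 3969 nt for chromatin regulators and 3156 nt for motor and actin genes. For translation factors it was 1287 nt and for retinal transcription factors 1395 nt. The part of length in the shares below was not tested. Of translation factors, 17 of 25 genes had a coding sequence position, which made up 54.8% of their positions. Eef2, the elongation factor that moves the ribosome, had 6 and 1 in its 3′ UTR, and Eif3c had 4 and 0. Of RNA helicases and splicing factors, 46 of 74 had one (51.3% of positions), led by Ddx5 with 9, Hnrnpu with 6, Dhx15 with 5 and Dhx9 with 4. Of chaperones, 14 of 33 had one (50.6% of positions), led by Hsp90ab1 with 8 and 1 in the 3′ UTR, Tcp1 with 6, and Hsp90b1 and Hspa9 with 5 each. Ribosomal protein genes had few, 5 of 10 genes with 7 positions, and Rpl4 and Rps24 had 2 each. A window found elsewhere too was present in Rps24 and Rpl32.

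Chromatin regulators had a coding sequence position in 58 of 81 genes (42.6% of positions), led by Kmt2e with 12, Chd7 and Kmt2a with 7 each and Ash1l with 5. Motor and actin genes had one in 23 of 33 (44.5% of positions), with Dync1h1, Dync1i2, Kif1b and Actb having 9, 7, 5 and 4. Tubulin and microtubule genes had one in 14 of 26 (36.7% of positions), with Map1b and Macf1 first. Ubiquitin ligases and peptidases had one in 70 of 148 (37.2% of positions), and Huwe1 had 7. MicroRNA pathway genes had one in 11 of 19 (31.7% of positions), and Tnrc6b had 4 and 15 in its 3′ UTR. Zinc finger genes had one in 73 of 145 (31.1% of positions). Kinases had one in 48 of 89 (23.2% of positions), histones in 7 of 13 (30.3% of positions).

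Retinal transcription factors were mostly crosslinked in their 3′ UTRs. Of 51 such genes with an mRNA crosslink, 18 had a coding sequence position. Coding sequence held 41 positions (13.7% of positions) and the 3′ UTRs held 258. Of the 18 genes, 0 had coding sequence positions alone. Rorb, a nuclear receptor of rod and amacrine development, had 8 positions in coding sequence, 26 in its 3′ UTR and 63 in introns. Its 8 were in 2 libraries for 6, in 3 for 1 and in 5 for 1, the last in exon 4 of 10 before the miR-30 match shown above. Prdm1, which favours photoreceptor over bipolar fate, had 6 and 15 in its 3′ UTR, and all 6 were in 2 libraries. Neurod1, a proneural factor, had 5, all in 2 libraries, and 19 in its 3′ UTR. Neurod4 had 5, 2 of them in 3 libraries, and 9 in its 3′ UTR.

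Notch pathway genes had a coding sequence position in 4 of 15 (7.69% of positions). Hes1, a repressor that keeps progenitors from differentiating, had 1, in 4 libraries, and 5 in its 3′ UTR. Cadherins had one in 9 of 52 (29.7% of positions), with 3 in Fat3. Ion channels and receptors had one in 4 of 22 (17.1% of positions) and axon guidance genes in 10 of 24 (25% of positions). Of the 24 retinal markers, 20 had a crosslink and 9 had one in coding sequence. Of 17 markers of other ocular cells, 2 had a crosslink and 1, Kdr, a receptor of vessel cells, had one in coding sequence.

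The deposited miR-216 table linked 95 coding sequence positions in 89 genes to a match of miR-216a or miR-216b (3.25% of the 2924). Of these, 73 were in 2 libraries, 19 in 3, 0 in 4 and 3 in 5. The 3 were in Asxl1, a Polycomb-associated protein, Eif5, a translation initiation factor, and Strbp, an RNA-binding protein, with the linked match starting 12 nt after the crosslink in Asxl1. The crosslink in Eif5 was also followed by the miR-9 6mer and that in Asxl1 by GTGCCTT, each nearer to it than the linked match. Rorb had 1 linked position, in 2 libraries. Matches to miR-216a were present in 0.445% of windows at coding sequence crosslinks and 0.236% away (odds ratio 1.89, 0.806 to 4.43; Fisher's exact test, q = 0.181), and those to miR-216b in 0.685% and 0.435% (1.58, 0.824 to 2.98, q = 0.236), so neither passed the test.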

How the data were processed

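The authors' deposited crosslink table gives, per the file headers, a score that counts the samples with each crosslink; it pools the 5 Argonaute libraries and lists scores of 2 to 5. The deposited miR-216 table was read as the authors' links of a match to a crosslink within 20 nt, and its score was read as the same count. Per the submitters' processing notes, STAR, bedtools, CASAVA 1.8.2 and the mm10 build were used; their roles and any other step are not stated there.

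Positions were classed with GENCODE M21 over protein-coding transcripts, a 3′ UTR taking precedence over coding sequence and that over all else, with the stop codon in the 3′ UTR. Place, exon and codon were read on the principal transcript, and gene lengths are the longest annotated ones. Windows held 20 nt on either side in spliced sequence. Matches were sought for 35 families with RefSeq mature sequences, with miR-206-3p standing for miR-1/miR-206. Tests were Fisher's exact and exact binomial tests (SciPy 1.17.1, Python 3.11.15) with Benjamini-Hochberg adjustment at 0.05 over all families. They were also run on simulated windows and positions, each drawn independently. Those had no shared genes, repeats or codons, so that run cannot show how such dependence affects the tests. Genes are not independent replicates of a condition, and positions of 1 gene share its mRNA.

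Genes named are the 15 with most coding sequence positions, the 15 with most and no 3′ UTR position, the 10 with most per kb among those with 3 or more, those with 2 or more positions in 5 libraries, up to 20 with 1, up to 4 of each of 17 gene lists, those with a linked miR-216 site in 4 or 5 libraries and those with 3 or more crosslinks near matches of 1 family; for other genes the choice followed their values. Some genes that this rule names are not reported here. The members and lists were chosen with earlier results of these data known. Alternatives changed the annotation, merging, window, match type and number of libraries.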

Additional observations from a re-analysis of the deposited data

How the results depend on the processing

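No paired analysis was possible because both tables hold pooled values, and leaving out single libraries could not be done either. The odds ratio for recurrence in coding sequence against 3′ UTRs ran from 0.461 (the most recurrent position of each gene, a choice that favours the class with more positions per gene) to 0.608 (the lowest coordinate of each gene, added after seeing the data). The share at the third codon base ran from 44.1% to 44.9%, and was 42.7% without the miR-9 6mer positions. No result reversed, and these moved. With 1 position per gene, the last 20% of the coding sequence held 23.4% of positions in place of 21.5%, and 2 families in place of 5 were more frequent in coding sequence than in 3′ UTRs. Counting only positions in 3 or more libraries, 67.9% of 521 genes with coding sequence positions had no 3′ UTR position counted, in place of 50.1%. That count left out 3′ UTR positions in 2 libraries. Of the 521 genes, 229 had no 3′ UTR position of any score and 292 had one. With positions in 3 or more libraries, 3 families were more and 5 less frequent in coding sequence, in place of 5 and 9, and fewer positions were tested. With 3′ UTRs of the principal transcript alone, the share of genes with coding sequence positions and no 3′ UTR position was 54.0%. With 8mers, 4 families were less frequent in coding sequence. Against windows away, 1 family (miR-22) was less frequent with windows 200 nt away, 1 (miR-138) with 10 nt on either side, and 2 (miR-22 and miR-29) with 6mers, in place of 0; the cause was not tested. Alternatives with 6mers, with the stop codon as coding sequence (2933 positions) and with 3′ UTRs of decay transcripts (2545 positions) were chosen after seeing the data. The unknown read depth limits what absence from the table can show.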
